A study of Mus musculus with 14 samples.

Results

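The 10 genes described here (Mylpf, Actc1, Myh3, Acta1, Tnnt3, Tnnc2, Myod1, Myog, Des and Ckm) are genes of skeletal muscle. They were taken by name, with earlier results of these data known, and all 10 were found among the 22026 genes of the RNA tables. They were read in cultures of mouse tail fibroblasts as markers of another cell type. RNA was sequenced from 4 libraries, with 1 library per group: untreated wildtype tail fibroblasts, untreated tail fibroblasts labelled AID-null, and the cells of each genotype after 3 weeks of reprogramming by forced expression of Oct4, Sox2, Klf4 and cMyc. AID, activation-induced deaminase, deaminates cytosine. The labels do not give the strain, the age or number of the animals, the way AID was inactivated or how the factors were delivered. The untreated libraries are labelled without reprogramming factors, and no allele or agent is stated to be shared by all groups. The values are FPKM (fragments normalised to library size and transcript length), and since they are per length, levels of different genes can be set side by side. Without replicate libraries there was no estimate of error and no test, and every difference below is a difference between single libraries.

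Skeletal muscle forms when Myod1 and Myog, transcription factors of the myogenic family, commit precursor cells and drive their fusion into fibres. The fibre then fills with sarcomeres, in which myosin thick filaments (heavy chains such as Myh3 and light chains such as Mylpf) pull on actin thin filaments (Acta1 and Actc1), under the control of the calcium-sensing troponin complex (Tnnt3, Tnnc2). Desmin (Des) is the intermediate filament that ties sarcomeres together, and the muscle creatine kinase Ckm supplies them with energy. Tails contain skeletal muscle, and explants of tail tissue can carry precursor cells of muscle into culture.

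All libraries are named by their labels, and each direction between genotypes below rests on those labels. The Y-linked gene Eif2s3y was listed at 0 in both wildtype libraries and at 184 and 274 FPKM in those labelled AID-null, so that genotype and sex cannot be told apart. Between 13381 and 14668 genes reached 1 FPKM per library. The fibroblast genes Col1a1 and Col1a2 stood at 26383 and 25482 FPKM in wildtype fibroblasts and at 30837 and 29183 FPKM in those labelled AID-null, and pluripotency genes such as Pou5f1 stood at 1539 to 2391 FPKM in the 3-week libraries.

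Promoter sequences show what 4 of the genes have at their starts, 2 whose transcripts were higher at 3 weeks in both genotypes (Mylpf and Des) and 2 thin filament actins that were not (Acta1 and Actc1). Each run below is the 250 bases before the annotated start in the RefSeq promoter table (build GRCm38.p6, not the mm9 build of the study), written 5′ to 3′ on the strand of the gene. Capitals mark E-boxes (CANNTG, the motif bound by Myod1 and Myog, which reads the same pattern on both strands) and the CArG box, the motif bound by serum response factor.
Mylpf, chr7:127211358-127211607, plus strand: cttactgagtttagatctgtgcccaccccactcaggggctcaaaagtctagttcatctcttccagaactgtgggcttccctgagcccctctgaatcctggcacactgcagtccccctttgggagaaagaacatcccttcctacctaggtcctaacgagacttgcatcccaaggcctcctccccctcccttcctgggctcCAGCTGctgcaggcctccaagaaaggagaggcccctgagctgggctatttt
Des, chr1:75360042-75360291, plus strand: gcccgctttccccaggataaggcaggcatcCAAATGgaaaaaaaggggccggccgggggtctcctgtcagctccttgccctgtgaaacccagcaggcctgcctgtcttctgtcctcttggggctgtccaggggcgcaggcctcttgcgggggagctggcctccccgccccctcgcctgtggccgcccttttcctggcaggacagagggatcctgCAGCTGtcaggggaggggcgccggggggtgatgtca
Acta1, chr8:123894776-123895025, minus strand: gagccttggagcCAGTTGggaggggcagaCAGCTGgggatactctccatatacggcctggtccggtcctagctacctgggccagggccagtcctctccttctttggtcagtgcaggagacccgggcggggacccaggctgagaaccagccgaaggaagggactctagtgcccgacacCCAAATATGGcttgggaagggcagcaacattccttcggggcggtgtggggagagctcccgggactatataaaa
Actc1, chr2:114052876-114053125, minus strand: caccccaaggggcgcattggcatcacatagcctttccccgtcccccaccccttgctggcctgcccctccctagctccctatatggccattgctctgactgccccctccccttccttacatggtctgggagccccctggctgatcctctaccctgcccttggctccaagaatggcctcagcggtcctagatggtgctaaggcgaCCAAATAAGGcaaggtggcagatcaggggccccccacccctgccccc

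The promoter table held 8 of the 10 genes, and Myod1 and Tnnt3 were not in it. An E-box was present in 7 of those 8 windows, and in 66.2% of all 32851 promoter windows of the same length. The E-box CAGCTG, which is one form of CANNTG, was found in the Mylpf, Des, Acta1 and Ckm windows and in 13.0% of all windows. A CArG box stood in the Acta1 window, 73 to 64 bases before the start, and in the Actc1 window, 47 to 38 bases before it, against 1.47% of all windows. These matches describe the letters of the windows and are not evidence that a factor bound there.

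The regulators were at or near the floor of the data. Myod1, which commits cells to the muscle lineage, was listed at 0 FPKM in all 4 libraries. Myog, which acts later and drives differentiation, was listed at 0 in wildtype fibroblasts, 2.09 FPKM in the fibroblasts labelled AID-null, 0.70 FPKM after 3 weeks in the wildtype and 0 after 3 weeks under the AID-null label. The highest Myog value thus fell in the fibroblasts labelled AID-null, and both values above 0 were low. Myf5 and Myf6, the other regulators of the myogenic family, and Pax7, the transcription factor of muscle stem cells, were listed at 0 in every library. With no counts deposited, a value listed at 0 cannot be turned into an upper limit.

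Mylpf, the regulatory light chain of fast muscle myosin, had the widest range of the 10. It stood at 2.28 FPKM in wildtype fibroblasts, 10.6 FPKM in fibroblasts labelled AID-null, 187.8 FPKM after 3 weeks in the wildtype and 95.4 FPKM after 3 weeks under the AID-null label. The level in fibroblasts was therefore 4.64 times as high under the AID-null label, whereas at 3 weeks the wildtype library was the higher, at 1.97 times the other. Both 3-week values exceeded both fibroblast values, 82.4-fold in the wildtype and 9.01-fold under the AID-null label. In the wildtype 3-week library only 10.1% of genes were listed at the level of Mylpf or above. Myl1, the essential light chain of the same fast myosin, was listed at 4.50 FPKM in fibroblasts labelled AID-null and at 0 in the other 3 libraries.

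Myh3, the myosin heavy chain of embryonic muscle, was listed at 0.22, 2.02, 2.85 and 1.44 FPKM in wildtype fibroblasts, fibroblasts labelled AID-null, the wildtype 3-week culture and the 3-week culture labelled AID-null. The wildtype fibroblasts were the low library and the other 3 lay within 1.98-fold of each other. Since heavy and light chains work as one molecule in the fibre, the 3-week levels can be set side by side: Mylpf stood at 187.8 FPKM and Myh3 at 2.85 FPKM in the wildtype culture. Under the AID-null label they stood at 95.4 and 1.44 FPKM. Of the other heavy chains on the myofibril list, Myh1, Myh2 and Myh4 were listed at 0 in both 3-week cultures. Wildtype first, Myh8 was listed at 0 and 0.13 FPKM there and Myh7 at 0.51 and 0.96 FPKM. In fibroblasts Myh1 stood at 2.57 and 4.28 FPKM.

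The sarcomeric actins had their highest values in fibroblasts. Acta1, the actin of adult skeletal muscle, stood at 9.18 FPKM in wildtype fibroblasts and 15.4 FPKM in fibroblasts labelled AID-null, and at 0.93 and 1.53 FPKM in the corresponding 3-week cultures. The fibroblast level was 9.87 times the 3-week level in the wildtype and 10.1 times under the AID-null label. Actc1, the actin of heart and developing skeletal muscle, was listed at 2.78 FPKM in fibroblasts labelled AID-null and at 0 in the other 3 libraries. Both actins are nearly identical in protein sequence to the smooth muscle actin Acta2. The transcripts were not compared in sequence, and where they are alike reads could be assigned to the wrong gene. Acta2 stood at 3817 and 4498 FPKM in the fibroblast libraries and at 44.7 and 192.1 FPKM at 3 weeks, again wildtype first. Acta1 amounted to 0.241% and 0.343% of Acta2 in the fibroblasts, and Actc1 to 0.0618% of it in fibroblasts labelled AID-null. At 3 weeks Acta1 amounted to 2.08% of Acta2 in the wildtype and 0.796% under the AID-null label. The part of misassigned Acta2 reads in the Acta1 and Actc1 values was not tested, and both values are uncertain to that extent.

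Both troponins were higher under the AID-null label. Tnnt3, the fast troponin T that anchors the complex to tropomyosin, stood at 2.65 and 6.20 FPKM in wildtype fibroblasts and fibroblasts labelled AID-null, and at 0 and 2.36 FPKM in the 3-week cultures. Tnnc2, the fast troponin C that binds calcium, was listed at 0 in both wildtype libraries, at 3.82 FPKM in fibroblasts labelled AID-null and at 2.05 FPKM in the matching 3-week culture. Tnnt3 was thus read in 3 libraries and Tnnc2 in 2, and at both stages the library labelled AID-null held the larger value.

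Des differed little between the fibroblast libraries, with 6.00 FPKM for the wildtype against 7.79 FPKM for the AID-null label. It stood at 14.7 FPKM after 3 weeks in the wildtype and 39.4 FPKM after 3 weeks under the AID-null label, 2.46 and 5.06 times the fibroblast level. Unlike Mylpf, it was higher at 3 weeks under the AID-null label than in the wildtype, 2.67-fold. Des is also made by smooth muscle and other mesenchymal cells, so it marks skeletal muscle less specifically than the others. Ckm, which marks mature fibres, was listed at 1.01 FPKM in the 3-week wildtype library and at 0 in the other 3.

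**Figure D1:**
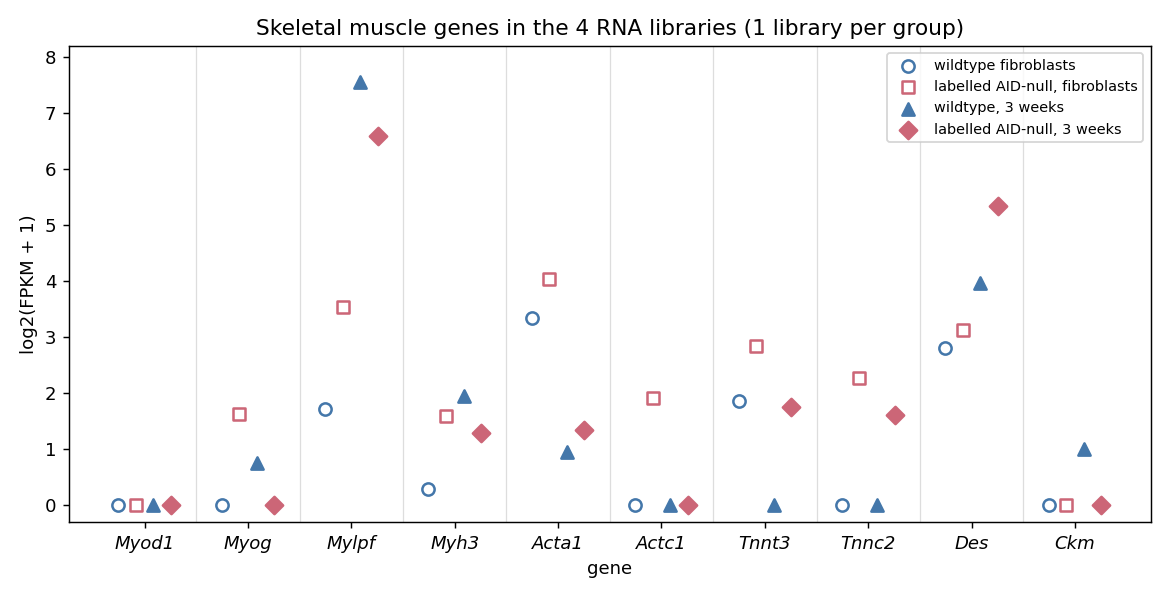
Level of each of the 10 genes as log2(FPKM + 1) in the 4 RNA libraries, 1 point per library; open symbols are fibroblasts and filled symbols 3-week cultures. Mylpf and Des are highest at 3 weeks, Acta1 is highest in fibroblasts, and Myod1 is listed at 0 in all 4 libraries.

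Untreated fibroblasts were compared to ask how the cultures of the 2 genotypes differed before reprogramming. Genes reaching 1 FPKM in one or both libraries were compared, and a difference of 1 or more in log2(FPKM + 1) was counted. This scale understates the change of low genes. Under the AID-null label 5 of the 10 genes were higher (Mylpf, Actc1, Myh3, Tnnc2 and Myog) and 0 were lower. Acta1, Tnnt3 and Des differed by 0.69, 0.98 and 0.33, and Myod1 and Ckm were listed at 0 in both libraries. Tnnt3 thus lay just inside the limit. Over all 13788 genes compared, 4.26% were higher and 1.34% lower. Genes at low levels passed this limit more often: among the 2814 genes whose larger value lay within the range of the 8 genes that passed the filter, 2.02 to 15.4 FPKM, 10.1% were higher and 2.59% lower. Actc1, Myh3, Tnnc2 and Myog passed the filter only through the library labelled AID-null and could not have been counted as lower, so the count of 5 is a description and not evidence of a shared shift. Mylpf is the one of the 5 that reached 1 FPKM in both libraries. The median difference was 1.14 over the 10 genes and −0.03 over all genes compared, and with a pseudocount of 5 in place of 1 the former was 0.52. In bulk RNA a larger number of muscle cells and more muscle RNA per cell cannot be told apart.

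**Figure D2:**
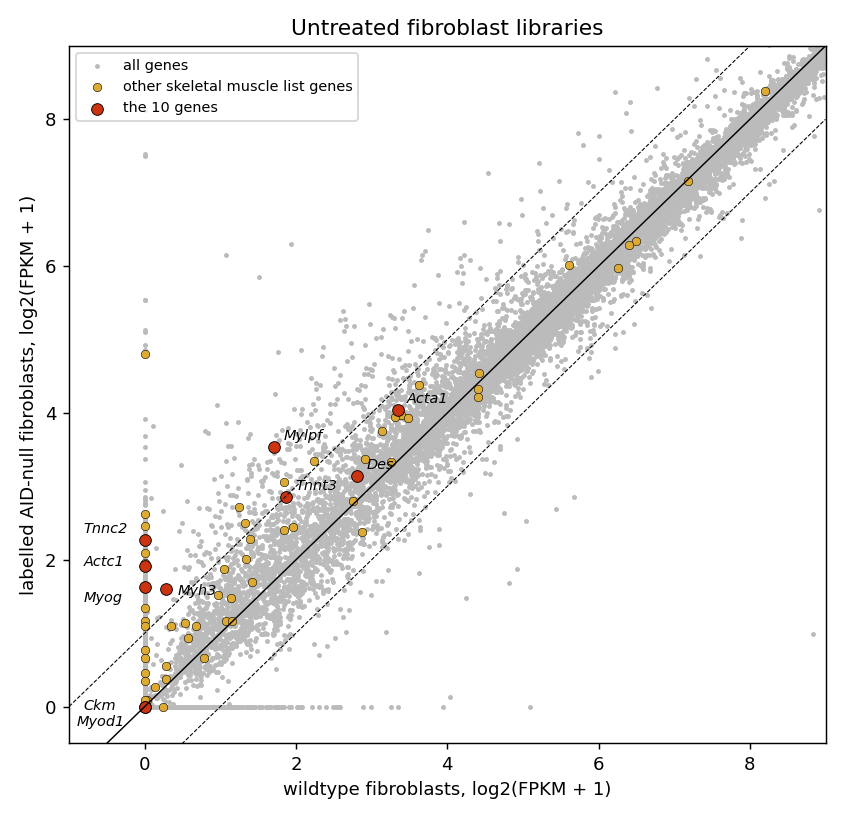
log2(FPKM + 1) in wildtype fibroblasts (horizontal) against fibroblasts labelled AID-null (vertical) for all genes with values up to 9 on both axes; the solid line marks equal values and the dashed lines a difference of 1. Mylpf, Myh3, Actc1, Tnnc2 and Myog lie above the upper dashed line, and Acta1, Tnnt3 and Des between the lines.

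Other genes of skeletal muscle were read from 4 lists of regulators, satellite cell markers, myofibril proteins and genes of muscle metabolism and calcium handling, which held 77 genes beside the 10. Of these 44 reached 1 FPKM in a fibroblast library, 12 were higher under the AID-null label and 0 were lower, against the 4.26% and 1.34% of all genes compared, or 10.1% and 2.59% of genes in the range of levels given above. Pairs of values below give wildtype fibroblasts before fibroblasts labelled AID-null. The lists held 13 regulators, 14 satellite cell markers, 39 myofibril genes and 25 metabolism and calcium genes, with members of the 10 included. Of those compared, 2 of 8 regulators and 1 of 9 satellite cell markers were higher. So were 11 of 24 myofibril genes and 3 of 12 metabolism and calcium genes. The levels of the 12 in fibroblasts labelled AID-null ran from 1.14 to 26.8 FPKM, and 8 of the 12 were listed at 0 in wildtype fibroblasts. Those 8 passed the filter only through the library labelled AID-null and could not have been counted as lower. The median difference over the 77 genes was 0.12. Myoglobin (Mb), the oxygen store of oxidative muscle, stood apart at 0 and 26.8 FPKM. Fast troponin I (Tnni2) was listed at 0 and 5.15 FPKM, the myosin light chain Myl1 at 0 and 4.50 FPKM, slow troponin T (Tnnt1) at 0 and 3.25 FPKM, troponin T of heart and developing muscle (Tnnt2) at 0 and 2.89 FPKM, and the titin cap Tcap at 0 and 1.53 FPKM. The slow troponin I gene Tnni1 stood at 1.37 and 5.56 FPKM. The caveolin of muscle membranes, Cav3, stood at 3.71 and 9.15 FPKM, and the calcium store protein Casq2 at 1.50 and 4.67 FPKM. Tmem8c, which encodes the fusion protein myomaker, was listed at 0 and 1.24 FPKM, and the acetylcholine receptor subunit Chrna1 at 0 and 1.14 FPKM. In the reverse direction, genes listed at 0 in one fibroblast library and at 2 FPKM or more in the other numbered 80 with the zero in wildtype fibroblasts and 39 with the zero under the AID-null label. A zero in wildtype fibroblasts was thus the commoner case over all genes.

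Most of the 44 other muscle genes compared stayed inside the limit, since 12 were higher under the AID-null label and 0 were lower. Among regulators that are active outside muscle too, Six4 stood at 20.4 and 22.2 FPKM and Mef2c at 11.3 and 19.8 FPKM. The adhesion molecules Vcam1 and Ncam1, which satellite cells share with other cells, stood at 546.6 and 457.8 FPKM and at 89.4 and 80.3 FPKM. The laminin receptor subunit Itga7 stood at 47.7 and 63.5 FPKM. Of the myofibril list, Tpm2, a tropomyosin also made by contractile fibroblasts, was the highest at 293.4 and 333.8 FPKM. Glycolytic Pfkm stood at 83.5 and 77.3 FPKM, and Jph2, a junction protein of muscle membranes, at 75.2 and 61.9 FPKM.

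The fibroblast libraries also held genes of other muscle types. All 12 smooth muscle genes were found, and 0 of the 11 that reached 1 FPKM differed by 1 or more. Tagln, an actin-binding protein of smooth muscle and myofibroblasts, stood at 2034 and 2489 FPKM and Cald1, a regulator of actin and myosin, at 1824 and 1538 FPKM. Heart muscle genes were mostly listed at 0, for 9 of 13 in each fibroblast library, among them Myh6, Myl7 and Nppa, and 1, Tnni3, was lower under the AID-null label at 7.31 and 2.27 FPKM. Ankrd1, also induced in stretched fibroblasts, stood at 45.9 and 25.6 FPKM and the natriuretic peptide gene Nppb at 3.07 and 5.82 FPKM.

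Of the markers of further cell types, macrophage and simple epithelium genes were mostly higher under the AID-null label. The cartilage and bone, Schwann cell and adipocyte lists were mixed or held few genes beyond a difference of 1. Over all genes compared 4.26% were higher and 1.34% lower. Macrophage genes were higher under the AID-null label for 10 of 11 members, with a summed level of 1603 and 2671 FPKM, none at 0 in either library, and with Fcer1g at 51.9 and 224.5 FPKM and Emr1 at 16.9 and 68.3 FPKM. All 6 simple epithelium genes were higher, with summed levels of 1.55 and 108.4 FPKM. Among them Krt8, Krt18, Krt19, Epcam and Cdh1 passed the filter only through the library labelled AID-null. Those genes could not have been counted as lower. Krt18 and Krt19, keratins of simple epithelia, were listed at 0 in wildtype fibroblasts, and the library labelled AID-null held them at 34.1 and 29.5 FPKM. Of 7 cartilage and bone genes compared 3 were higher and 1 lower, Bglap, at 2.31 FPKM and 0. The median difference over all 9 genes of that list was 0.00, with summed levels of 129.0 and 254.7 FPKM. The largest differences in the list were in the cartilage collagen Col2a1, at 2.83 and 77.8 FPKM, and the bone matrix gene Ibsp, at 11.6 and 66.8 FPKM. Of 8 Schwann cell and neural crest genes 0 passed a difference of 1, with sums of 173.2 and 283.7 FPKM and a median difference of 0.84. Of the 3 adipocyte genes compared, on a list of 6, 1 was higher, Adipoq, at 0 and 1.89 FPKM.

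Fibroblast genes (12 members), tendon genes (5) and endothelial genes (8) had 0 members beyond a difference of 1 in either direction, with medians of 0.10, 0.16 and 0.12. Of 4 keratinocyte genes compared 2 were lower, Krt5 and Krt14, listed at 1.67 and 1.62 FPKM in wildtype fibroblasts and at 0 in the other library. Of 7 pluripotency genes compared 2 were higher and 1 lower at low levels, with a median difference of 0.57, Fbxo15 at 0 and 1.65 FPKM and Nanog at 1.29 FPKM and 0. The part of these other cell types in the muscle values was not tested.

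**Figure D3:**
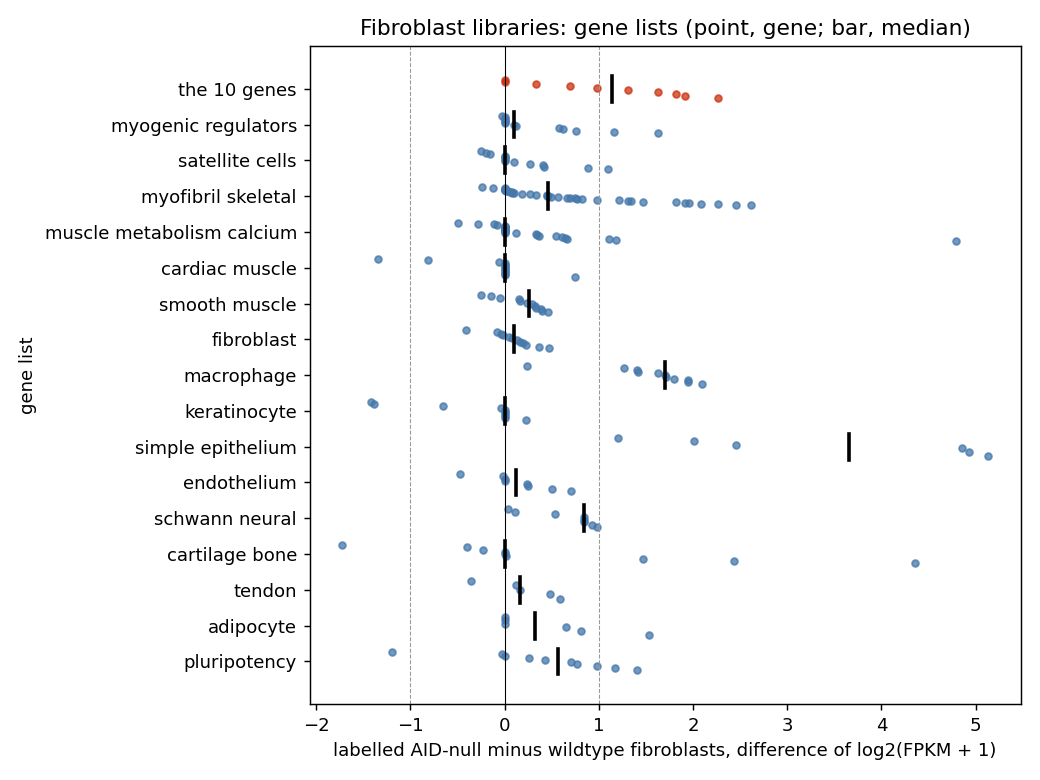
Difference of log2(FPKM + 1) between fibroblasts labelled AID-null and wildtype fibroblasts for each gene of the 10 and of the 16 other lists (points), with each list's median (bar) and dashed lines at a difference of 1. The medians of the 10 genes (1.14), macrophage genes (1.71) and simple epithelium genes (3.66) lie beyond 1 at the pseudocount of 1 plotted; that of the 10 genes is 0.52 at a pseudocount of 5.

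Reprogramming was compared with the starting fibroblasts to ask which of the genes were still present at 3 weeks. In the wildtype 6 of the 10 reached 1 FPKM at either stage. Of these 4 were higher at 3 weeks (Mylpf, Myh3, Des and Ckm) and 2 lower (Acta1 and Tnnt3), against 27.0% and 17.7% of 15196 genes. Myh3 and Ckm passed the filter only through the 3-week library, and Acta1 and Tnnt3 only through the fibroblast library. None of those genes could have been counted the other way. Ckm passed the limit by 0.01, with 1.01 FPKM against 0. Under the AID-null label 8 of the 10 reached 1 FPKM at either stage. Of these 2 were higher (Mylpf and Des) and 4 lower (Actc1, Acta1, Tnnt3 and Myog), against 21.3% and 17.6% of 15076 genes. Actc1 and Myog passed the filter only through the fibroblast library and could not have been counted as higher. Mylpf and Des were the 2 genes higher in both, and Acta1 and Tnnt3 the 2 lower in both. The members' medians were 0.38 in the wildtype and −0.48 under the AID-null label, against 0.16 and −0.05 over the genes compared, and 0.09 and −0.22 with a pseudocount of 5. Because Mylpf gave 187.8 of the 208.1 FPKM summed over the 10 genes in the wildtype 3-week culture, a summed muscle level describes that gene rather than the group. Mylpf left aside, no single gene of the 10 exceeded 3 FPKM there except Des.

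The wider muscle lists were mixed at 3 weeks as well. Of 42 compared in the wildtype 11 were higher and 16 lower, against 27.0% and 17.7% of all genes. Of 52 compared under the AID-null label 11 were higher and 21 lower, against 21.3% and 17.6%. The counts of higher genes were thus near the shares over all genes, and the counts of lower genes were above them. Genes that passed the filter only through the fibroblast library could not have been counted as higher. Those that passed only through the 3-week library could not have been counted as lower. Among the former were Myh1 and Cav3 in the wildtype and Tnni2, Myl1, Tnnt2 and Tcap under the AID-null label. The fibre genes Tnni2, Myl1, Tnnt2 and Tcap, which were detected in fibroblasts labelled AID-null, were listed at 0 in both 3-week cultures, while Mb stood at 3.95 FPKM in the wildtype culture and at 10.3 FPKM in the one labelled AID-null. Tnnt1 went the other way, to 4.44 and 10.6 FPKM. Smooth muscle genes were lower at 3 weeks for 9 of the 11 compared in each genotype, with medians of −3.75 and −2.49, against the same 17.7% and 17.6%. Heart muscle genes were higher for 7 of the 9 compared in the wildtype and 5 of the 6 compared under the AID-null label, against the same 27.0% and 21.3%, with the atrial light chain Myl7 at 4.70 and 20.7 FPKM and Nppb at 95.3 and 27.5 FPKM at 3 weeks. In the wildtype Myh6, Myl7, Nppa, Ryr2, Nkx2-5 and Tbx20 passed the filter only through the 3-week library. The same held for Myl7, Ryr2 and Tbx20 under the AID-null label. Those genes could not have been counted as lower, so the heart muscle counts are a description.

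**Figure D4:**
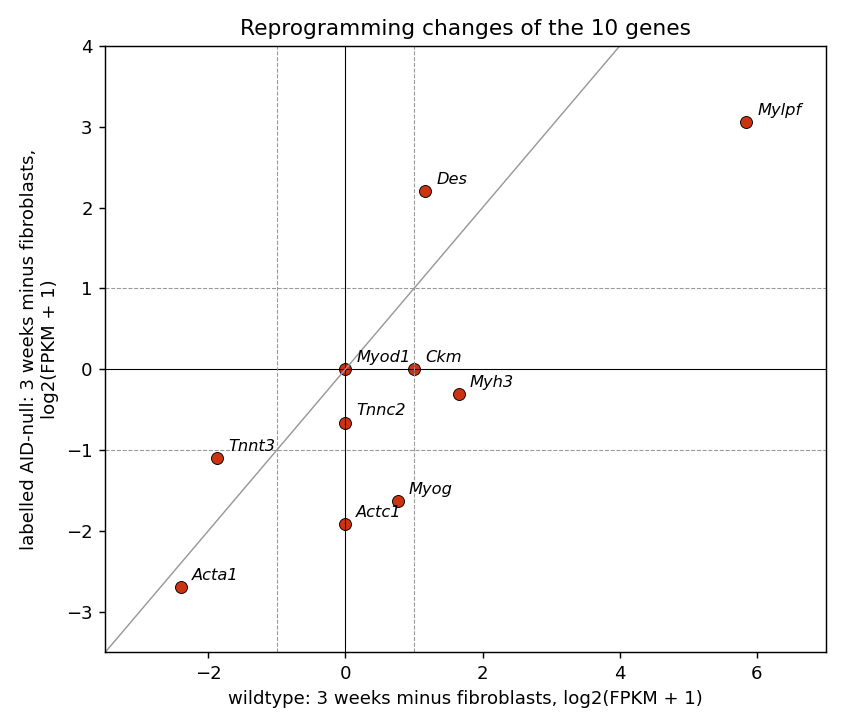
Difference of log2(FPKM + 1) between the 3-week culture and the starting fibroblasts for the 10 genes, in the wildtype (horizontal) and under the AID-null label (vertical); the diagonal marks equal changes and the dashed lines a difference of 1. Mylpf (5.85 and 3.06) and Des (1.17 and 2.20) lie in the upper right, and Acta1 (−2.40 and −2.70) and Tnnt3 in the lower left.

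Between the 3-week cultures the question was whether the genotypes still differed. Of the 10 genes 7 reached 1 FPKM in one or both cultures. Under the AID-null label 3 were higher (Tnnt3, Tnnc2 and Des), against 9.76% of 15204 genes, and 1 was lower (Ckm), against 11.6%. Tnnt3 and Tnnc2 passed the filter only through the library labelled AID-null, and Ckm only through the wildtype library. Tnnt3, Tnnc2 and Ckm could not have been counted the other way, so these counts are a description. Mylpf differed by −0.97, just inside the limit, and Myh3 by −0.66. The median over the 10 genes was 0.00, and over all genes compared it was −0.18. After scaling the libraries to a common upper quartile the median over the genes compared was −0.0017, and after scaling by median ratios it was 0.0132. Ckm, the 1 lower gene, was within the limit after either scaling. In fibroblasts Actc1, Tnnc2 and Myog had been above 0 under the AID-null label alone. At 3 weeks Tnnc2 again had a value under that label alone, 2.05 FPKM, Actc1 was listed at 0 in both, and Myog was listed at 0.70 FPKM in the wildtype and at 0 in the other. Of 41 genes of the wider muscle lists compared, 14 were higher under the AID-null label and 6 lower, against the same 9.76% and 11.6%. Myl3, Cmya5, Jsrp1, Cav3 and Kbtbd5 among the higher passed the filter only through the library labelled AID-null. Myom2 and Kbtbd10 among the lower passed it only through the wildtype library. None of those could have been counted the other way. Other markers differed between the 3-week cultures too. Fibroblast genes were higher under the AID-null label for 10 of 12 members, with sums of 9057 and 29391 FPKM, and none was at 0 in either culture. Macrophage genes were higher for 10 of 11, with sums of 155.3 and 1256 FPKM and 7 of them at 0 in the wildtype culture. Smooth muscle genes, a list that holds Des itself, were higher for 6 of the 10 compared, with sums of 628.9 and 1096 FPKM and 1 member at 0 in each culture. Of 9 keratinocyte genes compared 7 were lower, with sums of 162.0 and 7.51 FPKM and 6 of the 10 on the list at 0 under the AID-null label. The part of these cells in the values of Tnnt3, Tnnc2 and Des was not tested.

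The change in the wildtype was also subtracted from the change under the AID-null label. Both changes draw on the fibroblast libraries described above, so these values add no independent measurement. The difference was at least 1 for 1 gene, Des at 1.03, against 9.68% of 15624 genes, and at most −1 for 5 genes (Mylpf, Actc1, Myh3, Myog and Ckm), against 13.9%. For Mylpf it was −2.79, made up of a higher start and a lower 3-week level under the AID-null label. Acta1 differed by −0.30, with a nearly equal change in both genotypes. Actc1 was above 0 only in fibroblasts labelled AID-null, and Ckm only in the wildtype 3-week library. For each of them a single value above 0 made the difference negative. Myog reached 1 FPKM only in fibroblasts labelled AID-null. Ckm, at −1.01, was no longer counted after scaling to a common upper quartile or by median ratios. The counts are a description.

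Of the 5 genes nearest to the mean profile of the 10, by Euclidean distance between centred log2(FPKM + 1) values over the 4 libraries, 4 were Clca2, Rasl11b, Gap43 and Syn2, at distances of 0.13 to 0.20. Of the 10 themselves, Myh3 lay at 0.80, Myog at 0.96, Acta1 at 2.72 and Mylpf at 4.40 from their own mean. All 10 lay farther from it than those 5 genes did. Profiles were next taken for Mylpf and Des alone, a choice made after their values were seen. The nearest to Mylpf were AI662270, B4galnt3, Smagp, Bend4 and Zbtb32, with AI662270 at 4.00 and 19.8 FPKM in fibroblasts and 294.2 and 195.1 FPKM at 3 weeks. The nearest to Des was Col7a1, a collagen of anchoring fibrils, at 2.39 and 3.71 FPKM in fibroblasts and 6.85 and 21.0 FPKM at 3 weeks. With 4 libraries many genes share a profile, and likeness is given here as a description.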

How the data were processed

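RNA was measured in 4 libraries and DNA methylation in 10, of which the RNA libraries alone were used: the methylation positions are on mm9 and no mm9 annotation was used here to place the genes. Per the submitters' processing notes, the authors' tools included TopHat and Cufflinks with mm9. For versions, filters and annotation, the sources used here give nothing. The deposited values are FPKM per gene, normalised by the authors, 1 row per gene symbol. They summed to 1708869 to 2012350 per library. Ratios of low values (under 2 FPKM in both libraries of a pair) shared no common step, with at most 3.48% of them within a band of 2%, so depth is unknown and no count model or interval was used. No gene at 50 FPKM or more in 3 libraries was listed at 0 in the fourth.

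Groups came from the sample titles. Differences were taken on log2(FPKM + 1) and counted at 1 or more, among genes that reached 1 FPKM in one library or more of those compared, with Python 3.11.15 and pandas 2.3.3. The counting was checked on simulated shifts. No test was possible, since each group had 1 library. The members and lists were chosen with earlier results of these data known. Named genes were the 10; in each muscle list, up to 10 genes differing by 1 or more between fibroblasts and the 3 highest under the AID-null label; in other lists, the 2 largest differences; and the 5 nearest profiles. All list symbols were found, 3 by an older symbol. Alternatives were 3 other pseudocounts, 2 scalings, 2 filters and the handling of repeated symbols. Some items the rule would name are not reported here.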

Additional observations from a re-analysis of the deposited data

Results flagged for a closer look

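The changes of Myh3 and Myog at 3 weeks had opposite signs in the 2 genotypes. In each pair 1 change lay inside the limit of 1. It was −0.31 for Myh3 under the AID-null label and 0.77 for Myog in the wildtype, whose values there were below 1 FPKM. In wildtype cells Myh3 stood at 0.22 FPKM before and 2.85 FPKM after 3 weeks, and under the AID-null label at 2.02 FPKM before and 1.44 FPKM after, and its changes on the log2(FPKM + 1) scale differed by −1.97. Myog stood at 0 before and 0.70 FPKM after in the wildtype, and at 2.09 FPKM before and 0 after under the AID-null label, and its changes differed by −2.39 on that scale. With 1 library per group the difference was not tested.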

How the results depend on the processing

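The counts of the 10 genes depended on how low values were treated, by construction, since few of the genes exceeded 5 FPKM. With a pseudocount of 5, the counts of higher genes under the AID-null label were 1 in fibroblasts (Mylpf) and 1 at 3 weeks (Des), with 0 lower at 3 weeks. At 3 weeks against fibroblasts that pseudocount gave 1 higher and 1 lower gene in the wildtype (Mylpf and Acta1) and 1 lower gene under the AID-null label (Acta1). For the difference of changes it gave 0 higher and 1 lower. With a minimum of 5 FPKM the counts were 1 higher in fibroblasts, 1 higher and 0 lower between the 3-week cultures, 2 higher and 1 lower for the wildtype change, 2 lower for the AID-null change and 1 lower for the difference of changes. Pseudocounts of 0.1 and 0.5 each gave 2 higher genes for the difference of changes, Tnnt3 and Des. Upper-quartile and median-of-ratios scaling each left 0 lower genes between the 3-week cultures. Of 80 counts recomputed 19 moved by more than 1.5 times. No median over the 10 genes changed sign, but their sizes moved. From a pseudocount of 5 to one of 0.1 they ran from 0.52 to 1.68 in fibroblasts, from 0.09 to 0.64 for the wildtype change, from −0.22 to −0.66 for the AID-null change and from −0.36 to −2.01 for the difference of changes. Mylpf and Des stayed higher at 3 weeks than in fibroblasts under the AID-null label in all 8 alternatives. Each symbol had 1 row, so the handling of repeated symbols changed nothing. No paired analysis was possible because each RNA group had 1 library, and the numbered clones had no RNA. Depth is unknown, so no limit can be set on values listed at 0.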
